A study of Mus musculus with 3 samples.

Results

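Axon guidance ligands and receptors were taken from the RNA-Seq counts by gene symbol, as the semaphorins of classes 3 to 7 with their plexin and neuropilin receptors, the ephrins with the Eph receptors, the netrins with Dcc and the Unc5 receptors, and the Slits with the Robo receptors. Of the 24421 genes counted, 71 have such a symbol, and they lie on 19 chromosomes. The cells were undifferentiated female mouse ES cells of the EL16.7 line, grown with LIF on γ-irradiated embryonic fibroblasts that came from Tg(DR4)1Jae/J mice. They were infected with lentivirus, which carried a scramble shRNA in the control library and an shRNA against NUP153, a nucleoporin of the nuclear basket, in the KD-1 and KD-2 libraries, and all of them were selected with puromycin. Each condition was sequenced as 1 library, so that no spread between cultures could be measured. A removal of the fibroblasts before RNA extraction is not described. The RNA is from cells in bulk, and fewer cells of a type cannot be told apart from less RNA per cell.

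These proteins were first known for steering growing axons. A ligand, either secreted into the matrix or held on the surface of a neighbouring cell, binds a receptor on the growth cone, and the receptor acts on the cytoskeleton through small GTPases and kinases, so that the axon turns towards or away from the source. Many of the same genes are used outside of the nervous system, where they act in cell sorting, migration, blood vessel growth and the shaping of epithelia, and several of them are transcribed in ES cells and in fibroblasts.

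The control library had 72344726 reads on genes, the KD-1 library 85258834 and the KD-2 library 69839336. Nup153, on chr13:46679905-46727940 of GRCm38, was counted 27870 times in control, 16451 times with KD-1 and 11126 times with KD-2. After scaling by the upper quartile its log2 ratio to control was -0.99 in KD-1 (95% counting interval -1.02 to -0.96) and -1.43 in KD-2 (-1.46 to -1.40). The intervals here and in all that follows cover the counting of reads only. Levels are given as RPKM, reads divided by the length of the exons and by the upper-quartile scaled size of the library. The summed level of 12 ES cell markers was 3483 RPKM in control, 4014 RPKM in KD-1 and 2456 RPKM in KD-2, with a median log2 ratio to control of 0.15 for KD-1 and -0.30 for KD-2. Among them Zfp42 (-0.70) and Tdgf1 (-0.61) were called lower in KD-2 than in control, and Utf1 was called higher in both knockdowns, at 0.69 and 1.17. That of 16 fibroblast markers was 527 RPKM in control, 351 RPKM with KD-1 and 967 RPKM with KD-2, and 0 of these markers lacked reads in any library. Against control the fibroblast markers had a median log2 ratio of -0.59 in KD-1, with 8 of 16 called lower by the rule given below and 0 called higher. In KD-2 their median log2 ratio to control was 0.80, with 14 called higher and 0 called lower. Directly between the knockdowns, all 16 were called higher in KD-2 than in KD-1, with log2 ratios of 0.61 to 2.69. The levels of these markers thus differed in each of the 3 comparisons, and the part of fibroblast RNA in the values of the ligands and receptors was not tested. Markers of neural cells summed to 141 RPKM in control, 145 RPKM in KD-1 and 106 RPKM in KD-2, with Tubb3 (90.5 RPKM in control) and Stmn2 (37.3 RPKM) as the most abundant. Sox1 was called higher and Map2 lower in KD-1 than in control, Stmn2 was called lower in KD-2 than in control, and between the knockdowns Map2 was called higher and Pax6, Nes and Elavl3 lower in KD-2. Of 9 tested markers of primitive and visceral endoderm, 3 (Gata6, Dab2 and Amn) were called higher in KD-2 than in control, 3 (Gata6, Amn and Cubn) higher in KD-2 than in KD-1, and 0 in KD-1 against control. Of 6 endothelial markers 3 were tested. Kdr, with 296, 584 and 485 reads in control, KD-1 and KD-2, was called higher in both knockdowns, at log2 ratios of 0.75 and 0.60. Pecam1 had 2445, 3699 and 1903 reads and was called lower in KD-2 than in KD-1, Tek had 1788, 1812 and 1329 reads and was not called, and Cdh5, which defines endothelium, had 3 to 5 reads per library. The part of these cell types in the values below was not tested either.

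Most members were measured at low levels. Of the 71 genes, 27 reached 1 RPKM in control, 26 with KD-1 and 31 with KD-2, and the median member stood at 0.650 RPKM in control, 0.733 RPKM in KD-1 and 0.941 RPKM in KD-2. Epha2, Epha4, Sema3c and Plxnb2 together made up 51.4% of the summed level in control, 51.7% with KD-1 and 48.4% with KD-2. The 71 genes took 0.124% of the reads on genes in control, 0.123% with KD-1 and 0.184% with KD-2. Their summed level was 174 RPKM in control, 176 RPKM in KD-1 and 229 RPKM in KD-2. Comparisons were made for the 64 members with a mean of at least 10 reads. The other 7 (Epha5, Epha8, Ephb1, Ntn5, Ntng1, Ntng2 and Unc5a) had 0 to 13 reads in each library, and Ntng2 was the member without a read in KD-1.

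**Figure D1:**
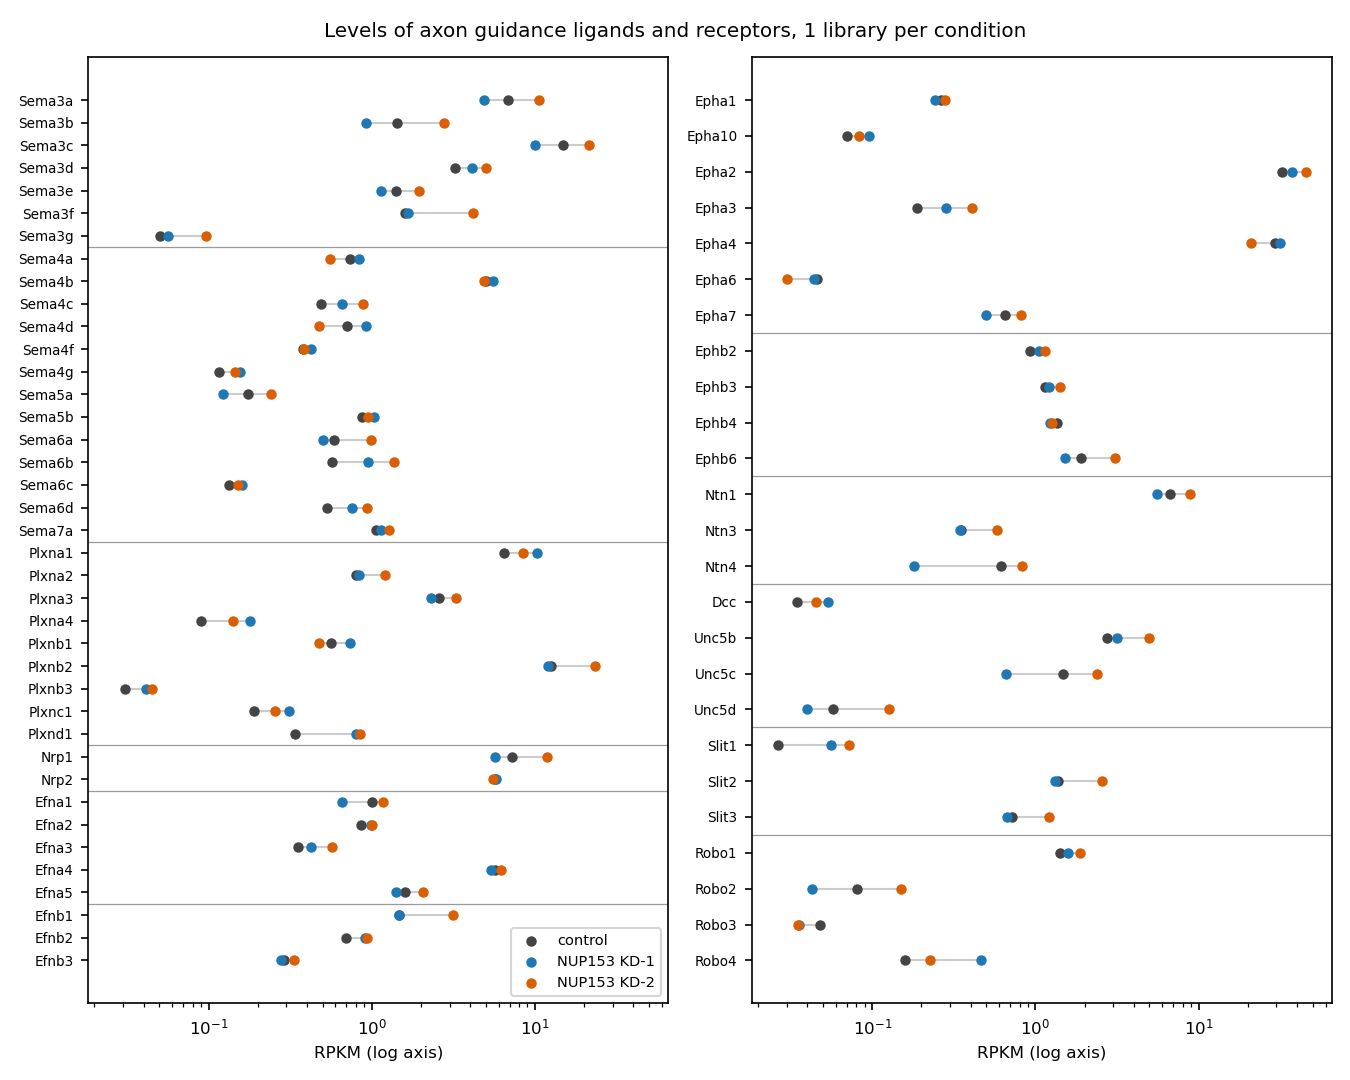
Level of the 64 members with a mean of at least 10 reads, in RPKM on a log axis, with 1 point for each library and a line from the lowest to the highest, grouped by family. Epha2 and Epha4 are the highest in control and KD-1, and the class 3 semaphorins, the netrins and the Slits have their highest point in KD-2.

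A member was called where its fold was above 1.5 and the 95% counting interval of its ratio left out no change. With 1 library per condition this compares libraries, not conditions, and no p-value is given for it. In KD-1, 7 of 64 members (10.9%) were called higher than in control and 5 (7.81%) lower, where 6.47% of all 16670 genes tested were called higher and 4.58% lower. In KD-2, 25 members (39.1%) were called higher than in control and 0 lower, where 14.9% of all genes were called higher and 8.6% lower. Between the knockdowns 22 members (34.4%) were called higher in KD-2 than in KD-1 and 3 (4.69%) lower, where the shares of all genes were 15.1% and 12%. Each of the 3 comparisons shares a library with each of the others. The median log2 ratio of the members was 0.08 in KD-1 against control, 0.46 in KD-2 against control and 0.30 in KD-2 against KD-1, and that of all genes tested was 0.02, -0.02 and -0.12. In KD-2 55 of 64 members (85.9%) had a ratio to control above no change, against 48.3% of all genes, and in KD-1 36 of 64 did (56.2%), against 53.0% of all genes. Of the 64 members, 37 were called in at least 1 comparison and 27 in none. If the interval is widened for an assumed variation of 20% between libraries, 3 members remained called higher in KD-1 than in control (Robo4, Plxnd1 and Plxna4) and 3 lower (Ntn4, Unc5c and Robo2), where 2.6% of all genes were called higher and 1.88% lower. In KD-2 14 members remained called higher than in control and 0 lower, against 7.08% and 2.33% of all genes, and the calls lost were those of Efna3, Ephb6, Nrp1, Ntn3, Plxna4, Sema3a, Sema3d, Sema3g, Sema6a, Slit3 and Unc5c. Between the knockdowns 16 remained called higher in KD-2 and 2 lower, against 9.84% and 4.02%. The calls lost there were those of Efna1, Epha7, Ntn1, Ntn3, Sema3e and Unc5b, higher in KD-2, and of Plxnb1, lower in KD-2. With a fold above 2 and the interval not widened, 3 members were called higher and 2 lower in KD-1 than in control (2.72% and 1.39% of all genes), 7 higher and 0 lower in KD-2 than in control (4.99% and 1.61%), and 11 higher and 1 lower between the knockdowns (7.77% and 2.83%).

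The promoters of the 2 members that were lowest and the 2 that were highest in KD-1 relative to control, among those with a mean of at least 100 reads, are shown to give the sequence from which these transcripts start. Each is the 250 bases before the start of the gene in RefSeq on GRCm38.p6, written 5′ to 3′ on the strand of the gene. The GENCODE models used for length start upstream of the RefSeq start for Ntn4, Unc5c and Robo4, so that the stretches of Ntn4 and Unc5c lie inside those models and that of Robo4 overlaps its model. Capitals mark matches on either strand to the motifs searched, and matches can overlap. The GC box was searched as GGGCGG. For the CCAAT box the letters of its name were used. The TATA box was searched with the letters TATAAA. For the E box the letters were CACGTG. The core of the CTCF motif was searched as well. Ntn4 is at chr10:93640799-93641048 on the plus strand, Unc5c at chr3:141465314-141465563 on the plus strand, Robo4 at chr9:37401722-37401971 on the plus strand, and Plxnd1 at chr6:115995006-115995255 on the minus strand.
Ntn4: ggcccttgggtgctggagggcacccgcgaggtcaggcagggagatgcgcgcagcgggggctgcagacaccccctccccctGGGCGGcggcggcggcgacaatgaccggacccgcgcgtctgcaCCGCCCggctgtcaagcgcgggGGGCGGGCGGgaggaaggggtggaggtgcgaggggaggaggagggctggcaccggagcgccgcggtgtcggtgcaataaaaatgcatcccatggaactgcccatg
Unc5c: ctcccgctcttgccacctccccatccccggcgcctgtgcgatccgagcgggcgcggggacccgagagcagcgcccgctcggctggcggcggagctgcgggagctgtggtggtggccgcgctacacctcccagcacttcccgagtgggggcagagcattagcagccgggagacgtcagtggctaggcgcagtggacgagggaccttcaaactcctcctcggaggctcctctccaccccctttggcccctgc
Robo4: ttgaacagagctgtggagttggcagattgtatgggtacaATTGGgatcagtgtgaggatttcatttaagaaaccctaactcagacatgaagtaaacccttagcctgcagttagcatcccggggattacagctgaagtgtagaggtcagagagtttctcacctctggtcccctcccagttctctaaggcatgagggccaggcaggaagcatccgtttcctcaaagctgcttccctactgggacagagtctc
Plxnd1: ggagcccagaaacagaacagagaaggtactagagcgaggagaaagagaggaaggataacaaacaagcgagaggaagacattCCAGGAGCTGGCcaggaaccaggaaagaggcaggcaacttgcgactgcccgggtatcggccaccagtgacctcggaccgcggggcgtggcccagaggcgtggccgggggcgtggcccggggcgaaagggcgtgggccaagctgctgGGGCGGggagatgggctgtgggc
The promoter of Ntn4 has 73.2% GC, 26 CpG and 4 GC boxes, of which one pair overlaps. The promoter of Unc5c is also rich in GC, with 71.2% GC and 23 CpG, and holds none of the motifs searched. Robo4, in contrast, has 49.6% GC, 2 CpG and 1 CCAAT box. The promoter of Plxnd1 has 64.8% GC, 16 CpG, 1 GC box and 1 match to the CTCF core. Of the members, 61 had an entry in the list of RefSeq promoters used, with a median of 64.4% GC. The median was 52% for the promoters of all 27025 genes listed, which were not limited to the genes counted. A GC content above 50% together with an observed to expected CpG ratio above 0.6 was found for 34 of the 61 (55.7%), against 31.2% of all promoters. The GC box was found in 72.1% of the members' promoters and 32.9% of all, the CCAAT box in 26.2% and 34.5%, and the TATA box in 3.28% and 13.0%. For the CTCF core the shares were 9.84% and 7.08%, and for the E box 4.92% and 6.05%. These are matches of letters, not bound sites.

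Class 3 semaphorins are secreted proteins that bind neuropilins and signal through plexins. All 7 were tested, and 5 were called higher in KD-2 than in control and 5 higher in KD-2 than in KD-1. In KD-1 1 was called lower than in control and 0 higher. Their summed level was 29.6 RPKM in control, 22.8 RPKM in KD-1 and 46.0 RPKM in KD-2. Sema3c, which acts in the outflow tract of the heart, was the highest of them, with 7472 reads in control, 5856 with KD-1 and 11498 (21.4 RPKM) with KD-2. Its log2 ratio to control was -0.58 (-0.63 to -0.53) in KD-1 and 0.51 (0.47 to 0.56) in KD-2, neither called with the upper quartile. The ratio in KD-1 was just inside the threshold, and was called lower after TMM normalization, DESeq2 size factors or library totals. KD-1 was thus the lowest library and KD-2 the highest, and the log2 ratio between them was 1.09 (1.05 to 1.14). Sema3a, the classic repellent that collapses growth cones, had 6635, 5526 and 11050 reads in control, KD-1 and KD-2, and lay in the same order. Its log2 ratio to control was -0.49 (not called) in KD-1 and 0.63 (0.58 to 0.67) in KD-2, and between the knockdowns it was 1.12 (1.07 to 1.17). Sema3b, on chr9:107597674-107609229, had 476, 362 and 995 reads. It was called lower in KD-1 (-0.62, interval -0.82 to -0.42) and higher in KD-2 (0.96, 0.80 to 1.12).

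Sema3f, a ligand of neuropilin-2, did not differ between control and KD-1 beyond the counting interval and was higher in KD-2. It had 579, 713 and 1636 reads, which is 1.59, 1.68 and 4.18 RPKM, and its log2 ratio to control was 0.07 (-0.09 to 0.23) in KD-1 and 1.39 (1.25 to 1.53) in KD-2. Sema3d had 1957, 2883 and 3251 reads and log2 ratios to control of 0.33 (not called) in KD-1 and 0.63 (0.54 to 0.71) in KD-2. Sema3e, which binds plexin-D1 without a neuropilin, had 918, 872 and 1372 reads, and was called between the knockdowns alone, at a log2 ratio of 0.78 (0.65 to 0.90). Sema3g was low, and its log2 ratio of 0.91 in KD-2 against control has a wide interval (0.04 to 1.90).

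The semaphorins of classes 4 to 7 stay attached to the membrane. All 13 were tested. In KD-1 1 was called higher than in control and 0 lower, in KD-2 4 were called higher and 0 lower, and between the knockdowns 2 were called higher and 1 lower in KD-2. Their summed level was 11.4 RPKM in control, 13.2 RPKM in KD-1 and 13.3 RPKM in KD-2. Their median log2 ratio between the knockdowns was -0.08, which is above 0 after scaling by library totals or DESeq2 size factors. Sema4b, the highest, was called in no comparison, at 4.99, 5.54 and 4.89 RPKM in control, KD-1 and KD-2. Sema6b, a ligand of the A plexins, had 159, 308 and 411 reads and was the one called in both knockdowns, at log2 ratios of 0.72 (0.44 to 1.01) and 1.26 (1.00 to 1.54). The control library was the lowest of the 3. Sema6d, which binds plexin-A1, had 394, 657 and 748 reads and reached the threshold in KD-2, at 0.82 (0.64 to 1.00), with 0.51 in KD-1 (not called). Sema4c, a ligand of plexin-B2, had 158, 247 and 307 reads and was likewise called in KD-2, at 0.85 (0.57 to 1.14).

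Sema6a and Sema5a had their lowest RPKM in KD-1. Sema6a, on chr18:47235598-47368870, had 362, 362 and 659 reads, with log2 ratios of 0.76 (0.57 to 0.95) in KD-2 against control and 0.98 (0.80 to 1.17) between the knockdowns. Sema5a, a semaphorin with thrombospondin repeats, had 228, 187 and 340 reads and was called between the knockdowns, also at 0.98 (0.72 to 1.25). Sema4d, known as CD100 and a ligand of plexin-B1, went the other way. It had 379, 583 and 276 reads, was highest in KD-1, and was called lower in KD-2 than in KD-1 at -0.96 (-1.17 to -0.75). The remaining 6 members of these classes were called in no comparison, and Sema4a had the lowest log2 ratio to control in KD-2 among them, -0.40 (-0.66 to -0.14).

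Plexins are the signalling receptors of semaphorins, with a GTPase-activating domain inside the cell. Of 9 tested, 4 were called higher in KD-1 than in control and 0 lower, and 3 were called higher in KD-2 and 0 lower. Plxnd1, the receptor of Sema3e, on chr6:115954811-115995005, was called in both. It had 173 reads (0.339 RPKM) in control, 476 (0.796 RPKM) in KD-1 and 465 (0.846 RPKM) in KD-2, and its log2 ratio to control was 1.23 (0.98 to 1.49) and 1.32 (1.06 to 1.58). The knockdown libraries were close to each other, at a log2 ratio of 0.09 (-0.10 to 0.28). Plxna4, which binds Sema6a, had 89, 206 and 150 reads and was also called in both knockdowns, at 0.98 (0.62 to 1.36) and 0.64 (0.26 to 1.04), the latter not called with the widened interval. Plxna1 had 4121, 7662 and 5799 reads, with KD-1 as the highest library, and was called in KD-1 at 0.67 (0.61 to 0.72) but not in KD-2, where the log2 ratio was 0.39. Plxnc1, the receptor of Sema7a, had 111, 213 and 160 reads and was called in KD-1 at 0.71 (0.37 to 1.06).

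The highest plexin, Plxnb2, on chr15:89155549-89180788, had another order. It was at 12.5 RPKM in control, 12.1 RPKM in KD-1 and 23.4 RPKM in KD-2, from 6734, 7645 and 13610 reads. Its log2 ratio to control was -0.05 in KD-1 (not called) and 0.91 (0.87 to 0.95) in KD-2. The ratio of the levels of Plxna1 and Plxnb2, which needs no scaling between libraries, was 0.522 in control, 0.855 with KD-1 and 0.363 with KD-2. Plxnb1 had 380, 576 and 341 reads and was called lower in KD-2 than in KD-1 at -0.63 (-0.83 to -0.44), but it was not called after TMM normalization, DESeq2 size factors or library totals (-0.58, -0.53 and -0.47). Plxna2, Plxna3 and Plxnb3 were called in no comparison.

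The neuropilins, the subunits that bind class 3 semaphorins and VEGF, parted from each other. Nrp1, on chr8:128358604-128503363, had 4930, 4587 and 8767 reads in control, KD-1 and KD-2, which is 7.21, 5.72 and 11.9 RPKM. It was called in KD-2 against control at 0.72 (0.67 to 0.77) and between the knockdowns at 1.06 (1.00 to 1.11). Nrp2 had 4697, 5638 and 4970 reads, which is 5.68, 5.81 and 5.58 RPKM, and its log2 ratios were 0.03, -0.03 and -0.06 in the 3 comparisons. The level of Nrp1 relative to Nrp2 was therefore 1.27 in control, 0.985 with KD-1 and 2.13 with KD-2. An annotated miRNA gene, Mir1903, overlaps 80 bases of the exons of Nrp1 on the same strand.

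Ephrins are ligands that sit on the membrane of one cell and bind Eph receptor kinases on another, and they signal in both directions. Ephrins of the A type have a lipid anchor and those of the B type cross the membrane. All 8 were tested. Efnb1, an X-linked ephrin that sorts cells in the developing skull, had 354, 414 and 817 reads (1.47, 1.46 and 3.14 RPKM), so that control and KD-1 were alike and KD-2 was higher. Its log2 ratio to control was 0.00 (-0.21 to 0.21) in KD-1 and 1.10 (0.92 to 1.28) in KD-2. Efna1, a ligand of Epha2, had 129, 98 and 161 reads, was called lower in KD-1 at -0.62 (-1.02 to -0.23) and was called higher in KD-2 than in KD-1 at 0.83 (0.47 to 1.22). Efna3 was called in KD-2 against control at a log2 ratio of 0.70 (0.23 to 1.18). The highest ephrin, Efna4, was at 5.72, 5.38 and 6.21 RPKM and was called in no comparison, and neither were Efna2, Efna5, Efnb2 and Efnb3.

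Epha2 and Epha4 had the highest levels of all members in control and KD-1. In KD-2 Epha2 was the highest, and Plxnb2 (23.4 RPKM) and Sema3c (21.4 RPKM) lay above Epha4. Of the 14 Eph receptors 11 were tested, and 2 were called higher in KD-2 than in control, 0 in KD-1 in either direction, and 2 higher in KD-2 than in KD-1. Epha2 had 10559, 14306 and 15935 reads, which is 32.3 RPKM in control, 37.4 RPKM in KD-1 and 45.3 RPKM in KD-2. Epha4, which binds ephrins of both types, had 16615, 20720 and 12719 reads, which is 29.5, 31.4 and 21.0 RPKM. The counting intervals of these abundant genes were narrow, so that depth was not the limit, but the folds stayed under the threshold. The log2 ratios to control were 0.21 (0.17 to 0.25) and 0.49 (0.45 to 0.52) for Epha2, and 0.09 (0.06 to 0.12) and -0.49 (-0.53 to -0.46) for Epha4. The level of Epha4 relative to Epha2 was 0.913 in control, 0.841 with KD-1 and 0.463 with KD-2.

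Epha3 had 115, 201 and 269 reads and was called in KD-2 against control at 1.12 (0.80 to 1.45), with KD-1 between control and KD-2. Epha7 had 449, 401 and 607 reads and was called between the knockdowns at 0.72 (0.54 to 0.91). Ephb6, which lacks kinase activity and was the highest receptor of the B type, had 505, 468 and 872 reads and was called in KD-2 at 0.68 (0.52 to 0.84) against control and 1.02 (0.86 to 1.18) against KD-1. For Ephb2, Ephb3 and Ephb4 the log2 ratios of the 3 comparisons lay between -0.15 and 0.32, and 0 of them were calls.

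Netrins are laminin-like proteins that attract axons through Dcc and repel them through Unc5 receptors, and several are held in the matrix close to the cells that make them. Of 4 netrins 3 were tested, and all 3 were called higher in KD-2 than in KD-1. With the interval widened for 20% variation, Ntn4 alone kept this call. Ntn4, on chr10:93640681-93747207, differs from the others in that it binds laminins of the basement membrane, and it had the lowest log2 ratio of all tested members in KD-1. It had 160 reads (0.612 RPKM) in control, 55 (0.180 RPKM) in KD-1 and 232 (0.824 RPKM) in KD-2. Its log2 ratio to control was -1.76 (-2.24 to -1.32) in KD-1 and 0.43 (not called) in KD-2, and between the knockdowns it was 2.19 (1.77 to 2.65), the highest of the tested members. Ntn1, the founding attractant, was the most abundant netrin, at 6.64, 5.53 and 8.91 RPKM from 2915, 2842 and 4211 reads, and was called between the knockdowns at 0.69 (0.62 to 0.76). The level of Ntn4 relative to Ntn1 was 0.0921 in control, 0.0325 with KD-1 and 0.0924 with KD-2. Ntn3 had 125, 144 and 225 reads and was called in KD-2 against control at 0.74 (0.42 to 1.07) and against KD-1 at 0.76 (0.46 to 1.08), and 89 bases of its exons overlap Tbc1d24 on the same strand. The netrins G, which are anchored to the membrane, were both under 10 reads on average.

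Among the netrin receptors Unc5b, Unc5c and Unc5d were called and Dcc was not. Unc5c, on chr3:141465216-141834924, a receptor for repulsion by netrin-1, had 1961, 1035 and 3441 reads, which is 1.47 RPKM in control, 0.661 RPKM in KD-1 and 2.39 RPKM in KD-2. Its log2 ratio to control was -1.15 (-1.26 to -1.04) in KD-1 and 0.70 (0.62 to 0.79) in KD-2, and between the knockdowns it was 1.85 (1.75 to 1.96). Unc5b, which is also a receptor on endothelium, was the highest of them and showed another order, with 1205, 1623 and 2342 reads (2.76, 3.17 and 4.97 RPKM) and log2 ratios to control of 0.20 (not called) and 0.85 (0.75 to 0.95). The level of Unc5c relative to Unc5b was 0.532 in control, 0.209 with KD-1 and 0.481 with KD-2. Unc5d had 37, 30 and 88 reads and was called in KD-2 against control at 1.13 (0.57 to 1.74) and against KD-1 at 1.66 (1.06 to 2.32). Dcc had 32, 58 and 45 reads, a depth at which its log2 ratio of 0.62 in KD-1 (-0.02 to 1.30) was not distinguishable from no change.

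Slits are large secreted repellents of the midline, and Robo proteins are their receptors. All 3 Slits were called higher in KD-2 than in control. Slit2, on chr5:47983138-48307733, had 2447, 2735 and 4907 reads (1.38, 1.31 and 2.56 RPKM), at a log2 ratio of -0.07 (not called) in KD-1 and 0.90 (0.83 to 0.97) in KD-2. Slit3 had 304, 332 and 552 reads, at -0.10 (not called) and 0.75 (0.55 to 0.96). For both, control and KD-1 were close and KD-2 was the highest library. Slit1 was low in all libraries, with 11, 27 and 32 reads, and was called in KD-1 at 1.03 (0.01 to 2.23) and in KD-2 at 1.39 (0.41 to 2.57). The call in KD-1 was lost after TMM normalization, DESeq2 size factors or library totals, at log2 ratios of 0.96 to 1.02.

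Robo2 and Robo4 differed between the knockdowns in opposite directions. Robo2, on chr16:73891839-74411825, had 96, 59 and 193 reads in control, KD-1 and KD-2, and was called lower in KD-1 at -0.93 (-1.42 to -0.45) and higher in KD-2 at 0.90 (0.54 to 1.27). Robo4, on chr9:37401897-37415115, is best known from endothelium, and it had the highest log2 ratio of all members in KD-1. It had 59 reads (0.159 RPKM) in control, 200 (0.461 RPKM) in KD-1 and 90 (0.226 RPKM) in KD-2. Its log2 ratio to control was 1.52 (1.11 to 1.98) in KD-1 and 0.50 (not called) in KD-2, and it was called lower in KD-2 than in KD-1 at -1.03 (-1.41 to -0.66). Robo1, the most abundant, had 1622, 2148 and 2335 reads (1.41, 1.59 and 1.88 RPKM) and was called in no comparison. The level of Robo2 relative to Robo1 was 0.0575 in control, 0.0267 with KD-1 and 0.0804 with KD-2. Robo3, which acts in commissural axons, had 23, 20 and 18 reads and was not called.

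**Figure D2:**
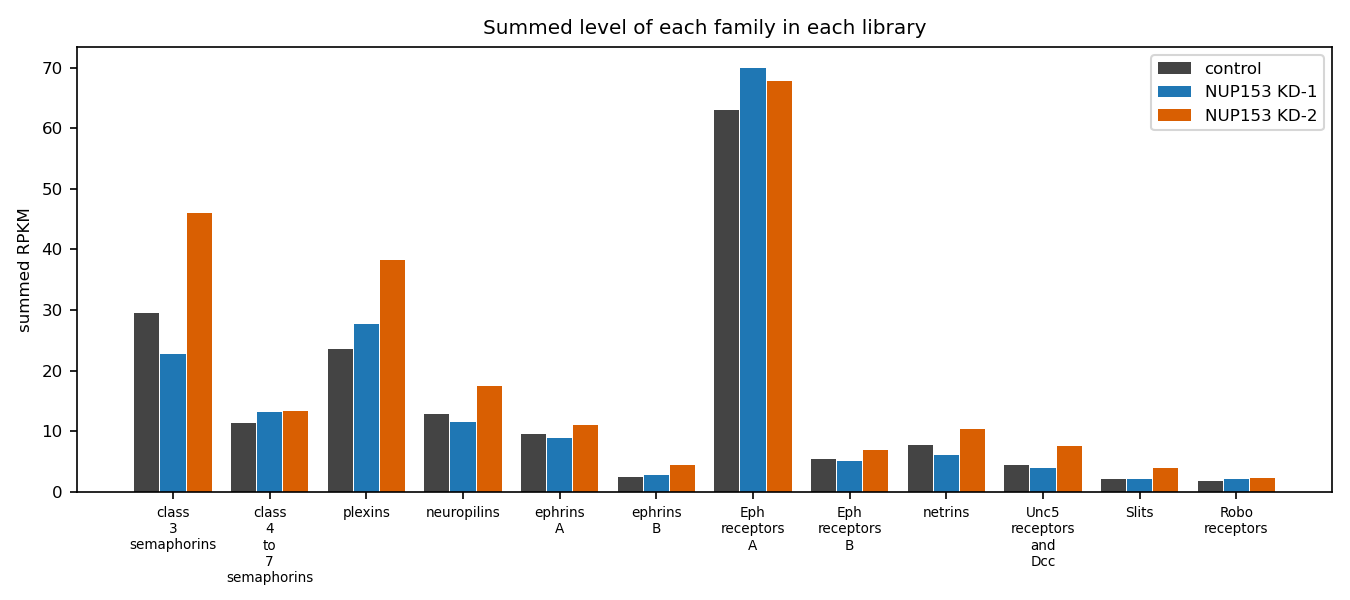
Summed level of each family in RPKM (vertical axis, from 0) in control, KD-1 and KD-2, with 1 bar for each library and no error bars because there was 1 library per condition. Class 3 semaphorins, neuropilins, ephrins A, Eph receptors B, netrins, Unc5 receptors with Dcc, and Slits have their lowest bar in KD-1 and their highest in KD-2.

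Grouped by role, the secreted ligands had the highest median ratio between the knockdowns. Of 13 secreted ligands tested, 10 were called higher in KD-2 than in KD-1 and 0 lower, with a median log2 ratio of 0.85. Of 21 membrane-bound ligands 4 were called higher and 1 lower, with a median of 0.21, and of 30 receptors 8 were called higher and 2 lower, with a median of 0.17. The difference between the roles was not tested. The summed level of the secreted ligands was 39.3 RPKM in control, 30.9 RPKM in KD-1 and 60.2 RPKM in KD-2, that of the membrane-bound ligands was 23.4, 24.7 and 28.7 RPKM, and that of the receptors was 111, 120 and 140 RPKM. In KD-1 against control 1 secreted ligand was called higher and 2 lower, 1 membrane-bound ligand was called higher and 1 lower, and 5 receptors were called higher and 2 lower. In KD-2 against control 9 of 13 secreted ligands, 6 of 21 membrane-bound ligands and 10 of 30 receptors were called higher. Of all genes tested, 14.9% were called higher and 8.6% lower in that comparison. The shares of all genes were 6.47% and 4.58% in KD-1 against control, and 15.1% and 12% between the knockdowns. In the same comparison between the knockdowns the fibroblast markers had a median log2 ratio of 1.56 and the ES cell markers one of -0.40, with 3 of 12 called lower.

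**Figure D3:**
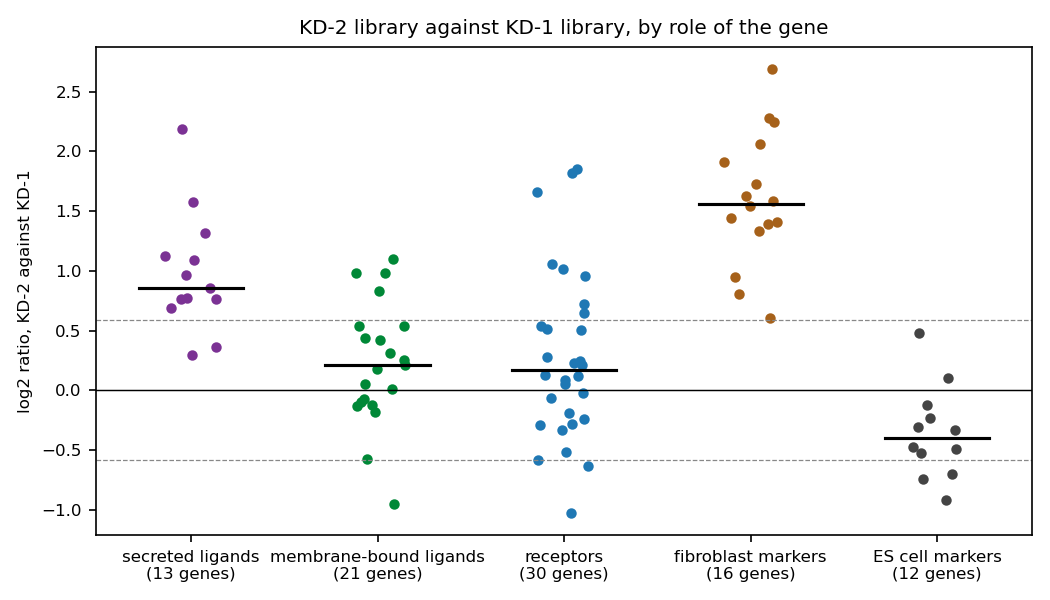
Log2 ratio of KD-2 against KD-1 (vertical axis) of each tested secreted ligand, membrane-bound ligand and receptor, beside the fibroblast and ES cell markers, with 1 point per gene and a bar at the median. Dashed lines mark a fold of 1.5. All 13 secreted ligands and all 16 fibroblast markers lie above 0.

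Other genes of the pathway were taken from a list of 89. Among 32 further cues and co-receptors, of which 29 were tested, 2 were called higher and 8 lower in KD-1 than in control, 9 higher and 0 lower in KD-2 than in control, and 13 higher and 1 lower in KD-2 than in KD-1. Of all genes tested, 6.47% were called higher and 4.58% lower in the first of these comparisons, 14.9% and 8.6% in the second, and 15.1% and 12% in the third. The median log2 ratios of the cues and co-receptors were -0.11, 0.31 and 0.51. The named ones are the 3 called genes with the largest log2 ratio in either direction to control in 1 of the knockdowns. Cxcl12, a chemokine that guides migrating cells, had 3026, 1501 and 7304 reads and log2 ratios to control of -1.24 (-1.33 to -1.15) and 1.16 (1.10 to 1.23). Boc, a co-receptor for Hedgehog ligands, had 700, 437 and 1815 reads, at -0.91 (-1.08 to -0.73) and 1.27 (1.14 to 1.40). Slitrk6, a membrane protein with leucine-rich repeats, had 450, 182 and 641 reads, at -1.53 (-1.79 to -1.28) and 0.40 (not called). All 3 were lowest in KD-1 and highest in KD-2. The next by this rule, Rtn4rl1, was called higher in both knockdowns, at 0.68 and 1.15. The 57 intracellular effectors, which carry the signal to the cytoskeleton, had 5 called higher and 4 lower in KD-1, 6 higher and 1 lower in KD-2, 9 higher and 5 lower between the knockdowns, and medians of 0.05, 0.12 and -0.01.

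Whether both knockdowns together differed from control was tested with edgeR's quasi-likelihood test, where KD-1 and KD-2 stand as 2 samples of the knockdown and leave 1 residual degree of freedom. Of 71 members 0 were called at an adjusted p-value of 0.05, where 4 of 21164 genes (0.0189%) were called in all. At an unadjusted p-value below 0.05 there was 1 member, Plxnd1, as against 293 genes in all (1.38%), and DESeq2's Wald test also called 0 members and had 1 below 0.05. For Plxnd1 the log2 fold change was 1.29, with an adjusted p-value of 1.00 by Benjamini-Hochberg in edgeR, and it was higher in both knockdown libraries.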

How the data were processed

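RNA was depleted of ribosomal RNA and sequenced by the authors as single-end reads, which were trimmed with Trim Galore 0.4.1 and mapped with TopHat 2.1.1 to mm10 (GRCm38). The deposited values are raw read counts per gene. The methods name featureCounts and the submitters' processing notes HTSeq, the strand counted is not given in the sources used here, and 9 members have exons that overlap another counted gene. The 5 summary lines, which name no gene, were left out: reads outside genes were 21.5% to 24.1% and ambiguous reads 1.45% to 1.65%.

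Counts were scaled by the upper quartile, and log2 ratios used a pseudocount of 0.5 reads and exact conditional binomial (Clopper-Pearson) intervals of 95%, for genes that averaged 10 or more reads. Without molecular identifiers, reads are not independent molecules. RPKM used merged exons of GENCODE vM21, matched by symbol for 23376 genes, including all 71 members. KD-1 and KD-2 together were tested with edgeR 4.0.16 (quasi-likelihood, TMM, genes with a read) and with DESeq2 1.42.0 in R 4.3.3. Python 3.11.15, pandas 2.3.3, numpy 2.4.6, scipy 1.17.1 and matplotlib 3.10.9 were used, and the computations were tested on simulated data. With a simulated variation of 20% between libraries, the call rule also called many unchanged genes. The edgeR and DESeq2 tests then missed most of the changed ones. Alternatives were TMM, DESeq2 size factors, library totals, a fold of 2, a pseudocount of 5 reads, a minimum mean of 100 reads, and intervals widened for 20% variation. Members with a mean of at least 100 reads that were called, the highest member of each family, and lower ones that were called were named. The members, lists, naming rule and pairs of related genes were chosen with earlier results of these data known.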

Additional observations from a re-analysis of the deposited data

Results flagged for a closer look

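For 3 members the knockdowns lay past the threshold on opposite sides of control, and the difference was not tested, since each condition is 1 library. Unc5c lay below control in KD-1 and above it in KD-2, and its log2 ratio of KD-2 against KD-1 was 1.85. Robo2 had the same order, with a log2 ratio between the knockdowns of 1.82. Sema3b was the third, with a log2 ratio between the knockdowns of 1.58. With intervals widened for an assumed 20% variation between libraries, Unc5c was not called in KD-2 against control and Sema3b was not called in KD-1 against control, while Robo2 was called in both.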

How the results depend on the processing

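With a fold above 2, members called numbered 3 higher and 2 lower in KD-1 than in control (7 and 5 with a fold above 1.5), 7 higher in KD-2 than in control (25), and 11 higher and 1 lower in KD-2 than in KD-1 (22 and 3). Of all genes, 2.72% and 1.39%, 4.99%, and 7.77% and 2.83% were called in this way. With intervals widened for 20% variation the members called numbered 3 higher and 3 lower with KD-1 and 14 higher with KD-2 than in control. The shares of all genes were then 2.6%, 1.88% and 7.08%. The median log2 ratio of the members in KD-2 against control moved from 0.455 to 0.613 with library totals, which shift the median of all genes by 0.16. Between the knockdowns it moved from 0.302 to 0.405 with DESeq2 size factors (a shift of 0.10 for all genes), 0.468 with library totals (0.17) and 0.508 with a minimum mean of 100 reads. The cause of the last was not tested. The 62 calls came from 37 members over 3 comparisons that share libraries. Of these calls, 60 were kept under each of TMM, DESeq2 size factors and library totals. Each rescaling shifts all genes of a comparison by the same amount, at most 0.17, and a call needs a log2 ratio beyond 0.585. No call could therefore have been reversed. Members called higher in KD-2 than in control rose in number to 33 with library totals, where 21.3% of all genes were called, and those higher in KD-2 than in KD-1 to 28 with DESeq2 size factors (17.8% of all genes) and 30 with library totals (19.8%). Members called lower in KD-1 than in control numbered 6 under each of these 3 scalings, with Sema3c added. The share of all genes was then 4.7% to 5.62%. Leaving out a replicate was not possible with 1 library per condition. No paired analysis was possible because each condition has 1 library. Depth limits the 13 members with a mean of 10 to 100 reads, and the 7 below that were not compared.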
